A study of Mus musculus with 6 samples.

Results

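Complement RNA was examined in cells sorted as neurons from the cortex around an infarct, through 9 genes named for the comparison out of 24419 in the deposited table: C1qa, C1qb, C1qc, C3, C4b, C3ar1, C5ar1, Cfb and Serping1. All 9 were present as rows of the table. The other complement genes were taken from a list of 60, of which the 9 are part. Wild-type male C57BL/6N mice, of an age that the labels do not state, underwent occlusion of the middle cerebral artery for 60 min and then received intravenous injections at 24, 48 and 72 h. The vehicle group received the carrier in 150 µL of phosphate-buffered saline, and the other group received 600 ng of 15-HETrE, a hydroxylated polyunsaturated fatty acid, in the same way. Both groups thus share the stroke, the injections and the dissociation with pronase, and no animal without a stroke was analysed here. On day 4, Thy1+ cells negative for ACSA2, CD31, CD45 and O4 were collected by flow cytometry, and 3 libraries represent each group.

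Complement is a cascade of secreted proteins that tags and can lyse targets. C1q, or lectins in its place, activates serine proteases that cleave C4 and C2; the products cleave C3, whose fragments coat the target and signal through C3ar1, while later cleavage of C5 feeds C5ar1 and the lytic terminal complex. In brain, microglia are the main source of C1q, astrocytes, oligodendrocytes and fibroblast-like cells can make C4 and several regulators, and complement tagging of synapses is a known route of their removal by microglia.

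The libraries are called here by group and column name: vehicle 1, vehicle 2, vehicle combined, 15-HETrE 1, 15-HETrE unnumbered and 15-HETrE combined. The sources used here do not say what combined means or whether the libraries come from separate animals; p-values therefore reflect only variation among these libraries, which may be technical. Depth was 5405245 to 22558400 reads assigned to genes, lowest in both combined libraries, and levels are given as CPM, reads per 1e+06 of the scaled library total. A count of 3 reads, taken as the floor, corresponds to between 0.135 and 0.540 CPM. Vehicle 1, vehicle 2 and 15-HETrE 1 share a prefix in their column names, here the first prefix, and 15-HETrE unnumbered has another; the combined pair has no such prefix and is set together only by the word combined. What these names stand for was not stated, so they are used as name groups only. Although the cells were sorted as neurons, summed markers of other types were abundant: neuronal markers (10 genes) totalled 2123 to 6505 CPM, oligodendrocyte markers (8 genes) 14499 to 30934 CPM and astrocyte markers (8 genes) 630 to 19942 CPM. Fibroblast markers were highest in vehicle 1 and vehicle 2. Without Pdgfra, which oligodendrocyte precursors also express, 9 genes summed to 8281 and 6236 CPM there. They summed to 1338 CPM in 15-HETrE unnumbered and to 28.1 to 128.5 CPM in the other 3 libraries. The list as drawn up held Pdgfra, which was highest in vehicle combined (1382 CPM). With it the sums were 9160 and 7242 CPM in vehicle 1 and vehicle 2 and 1163 to 1766 CPM in the others. Dpt, among the 9 genes, went the other way, with 0 CPM in vehicle libraries and 0.455 to 3.92 CPM in 15-HETrE libraries.

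No member passed the test for a difference between the groups. Of the 9 members, 7 had a mean of at least 1 CPM and were tested; C3 and C5ar1 were under that level. On the log2(CPM + 1) scale, 0 of 7 passed an adjusted p of 0.05 in limma in either direction, where 0% of all 14523 genes tested passed as higher and 0% as lower. At an unadjusted p under 0.05 there were also 0 of 7, against 9.5% of all genes. edgeR's quasi-likelihood test on recovered reads called 0% of all genes and DESeq2 called 1.14% of the 14469 genes to which it gave an adjusted p; neither called a member. The groups' values were fully separate for 15.2% of the genes tested, and overlapped for all 7 members. Most members varied several-fold among the libraries of a group, as their values by role show.

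**Figure D1:**
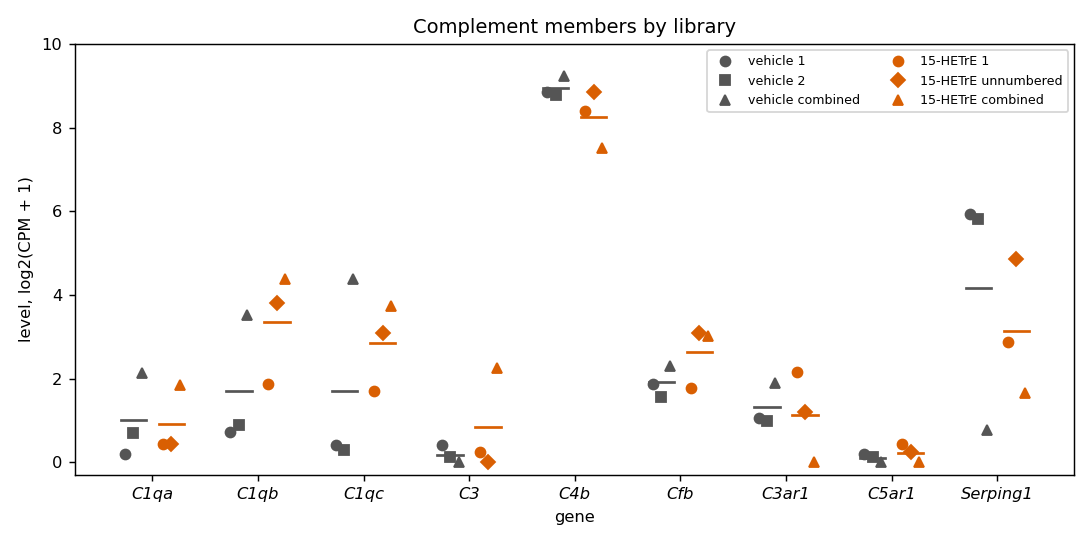
Level of each of the 9 members in each library, as log2(CPM + 1); grey symbols are vehicle and orange symbols 15-HETrE libraries, and horizontal bars are group means of these log2 values over 3 libraries. C4b lies far above the others, C1qb and C1qc are lowest in vehicle 1 and vehicle 2, and Serping1 is highest in the same libraries.

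The C1q genes encode the 3 chains of the recognition molecule that starts the classical pathway. They lie side by side on the minus strand of chromosome 4 within 18675 bases (GRCm38, GENCODE M21): C1qb from 136880129 to 136886187, C1qc from 136889804 to 136893065 and C1qa from 136895917 to 136898803. In vehicle 1, vehicle 2 and vehicle combined the level of C1qb was 0.654, 0.855 and 10.4 CPM; in 15-HETrE 1, unnumbered and combined it was 2.64, 13.01 and 19.9 CPM. The first pair of vehicle libraries was the lowest, but vehicle combined lay above 15-HETrE 1, so the groups overlapped. For C1qc the vehicle libraries, in the same order, had 0.327, 0.225 and 19.8 CPM, and the 15-HETrE libraries 2.28, 7.52 and 12.3 CPM. Here vehicle combined was the highest of all 6. C1qa, at 0.140, 0.630 and 3.42 CPM (vehicle) and 0.364, 0.358 and 2.57 CPM (15-HETrE), was highest in both combined libraries.

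Behind these levels were few reads: C1qa rested on 3, 14 and 19 reads in the vehicle libraries and on 8, 6 and 19 in the 15-HETrE libraries. The exact Poisson 95% interval of C1qa, which covers counting error only, was 0.0289 to 0.410 CPM in vehicle 1 and 2.06 to 5.34 CPM in vehicle combined. The 3 chains together had 24, 38 and 187 reads in vehicle libraries and 116, 350 and 257 reads in 15-HETrE libraries. Per kilobase of exon, which allows genes to be compared, the mean level over 6 libraries was 7.27 CPM per kb for C1qb, 3.66 for C1qc and 1.20 for C1qa. The chains did not keep 1 order: C1qc exceeded C1qb per kilobase in vehicle combined only (10.2 against 9.59 CPM per kb), while C1qb was the higher in the other 5 libraries.

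Group differences of the C1q genes were wide (15-HETrE minus vehicle, log2(CPM + 1), limma). C1qb averaged 3.98 ± 5.59 CPM with vehicle and 11.8 ± 8.67 CPM with 15-HETrE (SD of 3 libraries each, as for all means below), a log2 difference of 1.64 with a 95% interval of -0.43 to 3.71 (adjusted p 0.612, limma). C1qc had 6.78 ± 11.3 and 7.37 ± 5.01 CPM, a log2 difference of 1.15 with an interval of -1.27 to 3.58 (adjusted p 0.757, limma). For C1qa the means were 1.40 ± 1.77 and 1.10 ± 1.27 CPM and the log2 difference -0.10, with an interval of -1.90 to 1.69 (adjusted p 0.973, limma). Within the first prefix the 3 chains differed by 1.06, 1.36 and 0.00 (C1qb, C1qc, C1qa), and within the combined pair by 0.87, -0.64 and -0.31. Vehicle combined moved these values most: without it, C1qb differed by 2.54 (adjusted p 0.184, limma) and C1qc by 2.49 (adjusted p 0.156, limma). C1qc was smaller without vehicle 1 (0.51) or vehicle 2 (0.45) and on recovered reads with edgeR (0.14) or DESeq2 (0.08).

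Microglial markers varied over the same libraries. Their 11 genes, all detected, summed to 75.3, 90.04 and 197 CPM in the vehicle libraries and to 71.1, 170 and 186 CPM in the 15-HETrE libraries, beside C1q sums of 1.12, 1.71 and 33.6 CPM and of 5.28, 20.9 and 34.7 CPM. Sall1, a transcription factor of microglia, had the highest level on that list, 32.7 to 83.3 CPM. Of its 10 genes tested, 7 had a positive and 3 a negative difference. The list did not run 1 way, as 3 of its genes chosen after their values were seen show. P2ry12, a purinergic receptor, had 1.68, 1.44 and 27.0 CPM (vehicle) and 4.01, 13.5 and 41.0 CPM (15-HETrE). Cx3cr1, the fractalkine receptor, was highest in vehicle combined, with 1.31, 0.585 and 35.1 CPM against 1.32, 6.80 and 10.5 CPM. Tmem119, a microglial membrane protein, was highest in vehicle 1 and vehicle 2, where C1qb and C1qc were lowest, with 9.91, 11.7 and 6.65 CPM against 0.728, 7.70 and 0.811 CPM. The 9 macrophage and monocyte markers summed to 3.18, 0.360 and 11.2 CPM (vehicle) and to 2.00, 0.358 and 0.405 CPM (15-HETrE), with Pf4 at 0 in every library. The highest sum was in vehicle combined, the library in which C1qc was highest, and came mainly from F13a1, at 5.75 CPM, and Cd163, at 3.60 CPM. The 7 neutrophil genes found in the table summed to at most 4.63 CPM, with Cxcr2 at 0 throughout, and the 6 lymphocyte genes to at most 1.26 CPM, with Cd3e, Cd3d, Ms4a1 and Nkg7 at 0. The part of microglial or macrophage RNA in the C1q values was not tested. In bulk libraries, fewer cells of a type and less RNA per cell cannot be told apart.

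**Figure D2:**
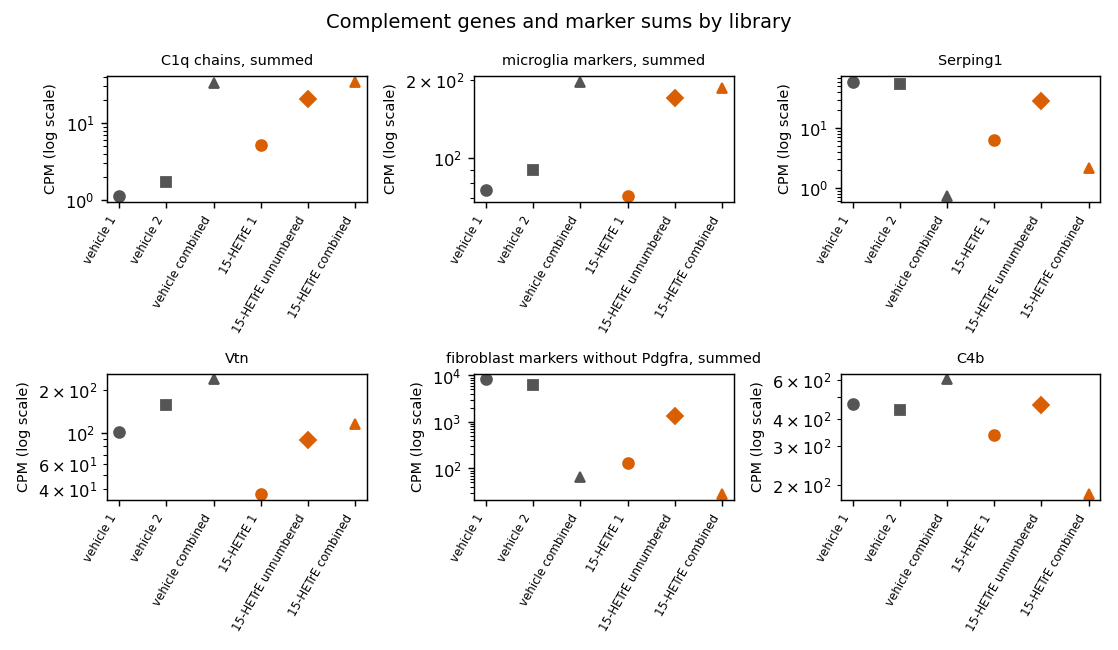
Level in CPM (log axis) in each of the 6 libraries for the summed C1q chains, the summed microglia markers, Serping1, Vtn, the summed fibroblast markers without Pdgfra and C4b; grey is vehicle and orange 15-HETrE, with circles, squares and diamonds for libraries other than the combined pair (triangles). C1q sums run from 1.12 CPM in vehicle 1 to 34.7 CPM in 15-HETrE combined, and Serping1 and the fibroblast markers are highest in vehicle 1 and vehicle 2.

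RefSeq promoter windows (GRCm38.p6) matched 5 of the 9 members: C1qb, C1qc, C3, C3ar1 and C5ar1. The stretches before C1qb and C1qc are shown because these chains, neighbours on the chromosome, were both lowest in vehicle 1 and vehicle 2; capitals mark matches to AGGAAGT on either strand, a motif bound by ETS factors such as PU.1 of myeloid cells, picked after the sequences were read. Both are on the minus strand, C1qb at chr4:136886201-136886450 and C1qc at chr4:136893066-136893164, and each ends before the first annotated base of the transcript.
C1qb: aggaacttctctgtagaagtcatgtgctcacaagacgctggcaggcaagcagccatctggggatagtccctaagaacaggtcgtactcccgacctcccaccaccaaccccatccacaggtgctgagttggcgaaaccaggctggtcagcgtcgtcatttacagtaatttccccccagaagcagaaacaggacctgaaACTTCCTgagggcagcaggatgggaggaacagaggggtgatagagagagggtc
C1qc: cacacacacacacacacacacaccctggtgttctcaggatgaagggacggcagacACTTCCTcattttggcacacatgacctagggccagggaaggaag

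Each of these stretches held 1 match, and so did the 250 bases before the RefSeq start of C1qb and of C1qc. C5ar1 had 2 matches, and C3 and C3ar1 had 0. Of 32851 windows of 250 bases before RefSeq starts, 7.69% held the motif. Matches to TTCNNNGAA, bound by STAT factors, numbered 0 in each of the 5 members' windows, against 7.02% of all windows; the motifs can overlap. A match describes letters only, and no match says nothing about the factor.

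Downstream of recognition, the listed early proteases averaged at most 17.2 CPM over the 6 libraries (Masp1), beside 7.91 CPM for C1qb. Cfb, the protease of the alternative pathway's C3 convertase (chromosome 17, 34856374 to 34862518, minus strand), had 2.66, 1.93 and 3.96 CPM in the vehicle libraries. Of the 15-HETrE libraries, unnumbered and combined were above these at 7.46 and 7.16 CPM, while 15-HETrE 1, at 2.41 CPM, lay within the vehicle range. The means were 2.85 ± 1.02 and 5.68 ± 2.83 CPM, a log2 difference of 0.72 with an interval of -0.75 to 2.18 (adjusted p 0.750, limma). It differed by 0.06 in the first prefix and by 0.72 in the combined pair. Its locus is overlapped over 6107 bases on the same strand by Gm20547, a gene of the annotation that has no row in the table, so reads there may have been assigned to either gene or to none.

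Other early proteases came from the list. Of 9, 5 were tested and 0 passed over all genes or at an unadjusted p under 0.05 (limma). Masp1, a protease of the lectin pathway, averaged 16.8 ± 5.86 CPM (vehicle) and 17.6 ± 11.2 CPM (15-HETrE). C1s1, which cleaves C4 and C2 within the C1 complex, had 10.5 and 14.1 CPM in vehicle 1 and 2, no read in vehicle combined, and 4.92, 2.51 and 7.70 CPM in the 15-HETrE libraries. Vehicle combined, where the C1q chains were among the highest, was thus the library with no C1s1 read. The exact Poisson 95% interval of C1s1 there ran up to 0.663 CPM. C1s1 was not alone in this, as the tested proteases C1ra and C2 also had no read in vehicle combined, whereas Masp1 and Cfb had reads. C1s1 differed by -1.16 in the first prefix and by 3.12 in the combined pair.

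C4b was the abundant member by far. It encodes complement C4, which is cleaved into C4b, the target-bound part of the classical C3 convertase, and lies on chromosome 17 from 34728380 to 34743882 on the minus strand. Levels in vehicle 1, 2 and combined were 464.7, 436 and 604 CPM, and those in 15-HETrE 1, unnumbered and combined were 336, 464.0 and 183 CPM. It rested on 1351 to 9942 reads per library and ranked from 127th to 1163rd from the top among all genes of a library. Per kilobase of exon its mean was 72.8 CPM, against 10.9 CPM per kb for Serping1 and 7.27 for C1qb, the next members in order. 15-HETrE combined was the lowest and vehicle combined the highest, and 15-HETrE unnumbered lay between vehicle 2 and vehicle 1, so the groups overlapped.

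C4b averaged 502 ± 89.6 CPM with vehicle and 328 ± 141 CPM with 15-HETrE. The log2 difference was -0.70 with an interval of -1.46 to 0.06, and it did not pass (adjusted p 0.565, limma). It was -0.42 (first prefix) and -1.72 (combined pair), and -0.19 without both combined libraries. Beside it, 15-HETrE combined had the highest astrocyte marker sum, 19942 CPM, and vehicle combined the next, 7325 CPM, while oligodendrocyte markers in those libraries were 20826 and 22396 CPM. The part of these cell types in the C4b values was not tested.

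C4a is a near-identical copy of C4b, 65209 bases away on the same strand (34809092 to 34823464), which GENCODE M21 lists as a processed transcript. Over the 5204 aligned coding bases of C4b the transcripts were 96.1% identical, the longest identical run was 433 bases, and 35.5% of all coding windows of 50 bases, or 16.4% of those of 100 bases, were the same in C4a. The sources used here do not say how reads from such stretches were assigned, so the split between the genes is uncertain. The 90 aligned bases within an exon that differ most are shown, with differing bases in capitals, because reads there can tell the copies apart; they lie at chr17:34735430-34735519 and chr17:34816086-34816175 (GRCm38, minus strand) and differ at 14 positions.
C4b: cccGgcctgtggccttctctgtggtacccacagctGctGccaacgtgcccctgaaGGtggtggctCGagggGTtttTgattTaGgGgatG
C4a: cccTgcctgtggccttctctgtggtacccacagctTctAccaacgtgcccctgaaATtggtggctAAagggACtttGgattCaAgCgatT

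Reads assigned to C4a made up 0.297% to 1.03% of those assigned to either gene. The copy had 1.45, 3.28 and 1.80 CPM (vehicle) and 3.51, 3.76 and 0.946 CPM (15-HETrE), with overlapping groups and a log2 difference of 0.17 (adjusted p 0.952, limma).

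**Figure D3:**
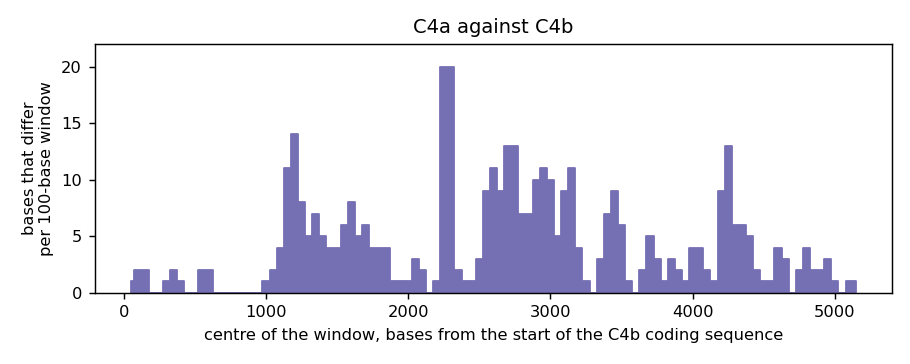
Number of bases that differ between C4a and C4b, unaligned bases included, in windows of 100 bases along the coding sequence of C4b. Differences are unevenly placed, from 0 in each window between bases 650 and 950 to 20 per window near base 2250.

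C3, on which all routes of activation converge (chromosome 17, 57203970 to 57228136, minus strand), rested on few reads. It had 7, 2 and 0 reads in the vehicle libraries and 4, 0 and 28 reads in 15-HETrE 1, unnumbered and combined, which is 0.327, 0.090 and 0 CPM against 0.182, 0 and 3.78 CPM. Only 15-HETrE combined had more than 7 reads, with an exact Poisson interval of 2.51 to 5.47 CPM; that of vehicle combined, with 0 reads, ran up to 0.663 CPM. With no filter on low values its log2 difference was 0.66, with an interval of -0.68 to 1.99 (adjusted p 0.784, limma), and it was -0.02 in the first prefix and 2.26 in the combined pair. That difference comes from 1 library, since the other 2 15-HETrE libraries lay within the vehicle range. Over the 6 libraries the mean of C3 was 0.142 CPM per kb, beside the 72.8 of C4b.

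Of the 7 terminal components, which form the lytic pore, 0 reached a mean of 1 CPM and C9 had no read in any library. Among the lectin and pentraxin initiators on the list, Mbl1, Mbl2, Crp and Apcs had no read in any library, and the 9 listed initiators other than C1q all stayed under the level tested.

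The receptors for the cleavage fragments were low. C3ar1, which binds C3a (chromosome 6, 122847138 to 122856161, minus strand), had 1.075, 0.990 and 2.70 CPM (vehicle) and 3.46, 1.31 and 0 CPM (15-HETrE), from 0 to 76 reads. The 15-HETrE group held both the highest and the lowest library. The log2 difference was -0.19 with an interval of -1.92 to 1.54 (adjusted p 0.952, limma), and changed sign between the first prefix (1.13) and the combined pair (-1.89). C5ar1, the C5a receptor (chromosome 7, 16246743 to 16259540, minus strand), had 3, 2 and 0 reads in vehicle and 8, 3 and 0 reads in 15-HETrE libraries. Only 15-HETrE 1, at 0.364 CPM, exceeded the floor of 3 reads, so a difference in C5ar1 was not detectable at this depth. With no filter its log2 difference was 0.12, with an interval of -0.24 to 0.49 (adjusted p 0.831, limma).

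Among the other receptors, Itgam, a subunit of complement receptor 3 on microglia and other myeloid cells, had 0.888, 1.21 and 22.8 CPM (vehicle) and 2.64, 10.9 and 3.38 CPM (15-HETrE). Vehicle combined, also the highest library for C1qc, was the highest. Cd93, a C1q receptor-like protein of endothelium and myeloid cells, had 2.65 ± 2.21 and 3.16 ± 2.14 CPM. Of 9 receptors on the list 4 were tested, 0 passed an unadjusted p under 0.05 (limma), and their differences ranged from -1.68 to 0.31.

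Serping1 encodes the C1 inhibitor, the serpin that inactivates C1r, C1s and the lectin pathway's proteases (chromosome 2, 84765387 to 84775444, minus strand). Vehicle 1, 2 and combined had 60.1, 55.01 and 0.719 CPM of it, and 15-HETrE 1, unnumbered and combined had 6.33, 28.1 and 2.16 CPM. The vehicle group thus held both the highest libraries and the lowest, a range of 1285 to 4 reads. The means were 38.6 ± 32.9 and 12.2 ± 13.9 CPM, a log2 difference of -1.04 with an interval of -3.92 to 1.84 (adjusted p 0.817, limma). It was -2.997 among libraries of the first prefix and 0.88 in the combined pair, so the sign changed with the libraries compared. Without vehicle combined it was -2.74 (adjusted p 0.166, limma), where 0.627% of all genes passed, whereas it was -0.16, -0.23 and -0.31 without vehicle 1, vehicle 2 or 15-HETrE combined. With library weights, which gave vehicle combined the lowest weight, Serping1 differed by -2.68 and passed (adjusted p 0.00760, limma). It was the single member of 7 to do so under any setting run, and under the same weights 16.7% of all genes passed. Those weights were 3.16 for 15-HETrE 1, 0.51 for 15-HETrE unnumbered and 0.44 for 15-HETrE combined. The 15-HETrE side of this call thus rests mainly on 15-HETrE 1.

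The 10 fibroblast markers summed to 9160, 7242 and 1448 CPM (vehicle) and to 1163, 1766 and 1256 CPM (15-HETrE), and without Pdgfra to 8281, 6236 and 65.5 CPM and to 128.5, 1338 and 28.1 CPM. Col1a1, a fibrillar collagen chain, had 2811, 1718 and 11.3 CPM, and 19.3, 421 and 2.84 CPM. Serping1 was thus highest in vehicle 1, vehicle 2 and 15-HETrE unnumbered, the libraries with the most Col1a1 RNA. Fibroblast markers were not alone in this, as genes chosen after their values were seen show. Cdh5, alone of the endothelial markers, and Acta2 and Tagln, alone of the pericyte and smooth muscle markers, were also highest in these libraries. Most markers of both lists ran otherwise. Flt1, Pecam1, Kdr, Tek and Egfl7 (endothelial) and Abcc9 and Kcnj8 (pericyte) were highest in vehicle combined. Cldn5 was highest in 15-HETrE unnumbered and then 15-HETrE 1, and Higd1b in 15-HETrE combined. Pdgfrb, Rgs5 and Notch3 were higher in vehicle combined than in 15-HETrE unnumbered. The part of RNA from any of these cell types in the Serping1 values was not tested.

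Vitronectin and clusterin, secreted proteins that block assembly of the terminal complex, had differences of opposite sign. Neither passed after adjustment except with library weights, under which 16.7% of all genes passed. There Vtn differed by -1.55 (adjusted p 0.00447, limma) and Clu by 1.76 (adjusted p 0.0176, limma). Vtn, which pericytes also express, had 101, 156 and 237 CPM (vehicle) and 37.0, 88.1 and 115 CPM (15-HETrE), overlapping only through vehicle 1, with a log2 difference of -1.09 (interval -2.07 to -0.12, adjusted p 0.490, limma). It was -1.74 (first prefix) and -1.03 (combined pair). Pericyte and smooth muscle markers, 8 genes, summed to 661 to 1131 CPM with vehicle and 192 to 574 CPM with 15-HETrE, and their part in the Vtn values was not tested. Clu, abundant in astrocytes, had 95.6, 48.5 and 462 CPM (vehicle) and 201.1, 111 and 1040 CPM (15-HETrE), highest in both combined libraries, where astrocyte marker sums were also highest. Its log2 difference was 1.14 (interval -0.81 to 3.09, adjusted p 0.70, limma), and it was 1.55 in the first prefix and 1.17 in the combined pair. Cfp, properdin, which stabilises the alternative convertase, had 12.3 ± 13.8 and 4.02 ± 2.14 CPM, with 28.2 CPM in vehicle combined.

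Membrane regulators, which protect the cell that carries them, were modest. Of 6 listed, 4 were tested and 0 passed an unadjusted p under 0.05 (limma). Cr1l, the rodent regulator Crry, had 23.1 ± 13.1 and 12.8 ± 6.29 CPM, and Cd59a, an inhibitor of the lytic pore, had 6.64 ± 2.17 and 15.0 ± 11.1 CPM, with 27.2 CPM in 15-HETrE unnumbered. Neuronal proteins with sushi domains like those of complement regulators were all above the level tested. Of these 7, 6 had a positive difference, where 51% of all genes tested did. The median was 0.38, but 0 passed an unadjusted p under 0.05 (limma). With library weights, under which 16.7% of all genes passed, Susd4, Csmd1 and Sez6l passed as higher (adjusted p 0.00949 to 0.0183, limma). The others, Sez6l2 among them, did not. Sez6l2 had 369 ± 87.5 and 407 ± 75.5 CPM, and Sez6l had 196 ± 51.2 and 255 ± 24.8 CPM. Beside them, neuronal markers were higher for 9 of 10 genes and summed to 2123 to 3396 CPM with vehicle and 3418 to 6505 CPM with 15-HETrE; their part in these values was not tested.

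**Figure D4:**
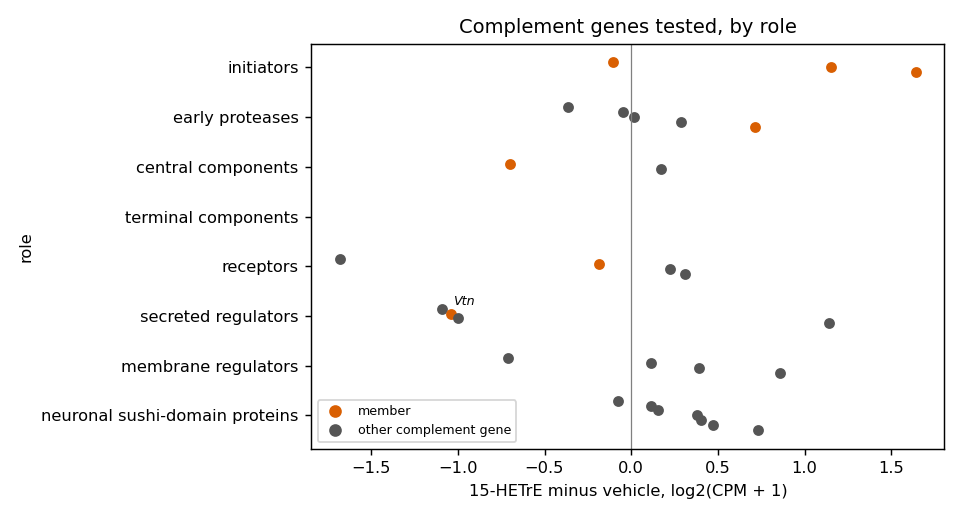
Differences between group means (15-HETrE minus vehicle, log2(CPM + 1)) of 29 of the 30 complement genes tested, by role; orange points are members and grey points other genes of the list. Vtn, the named point, had an unadjusted p under 0.05, and no point passed adjustment over all genes.

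Over the whole list, 30 of 60 genes were tested and 7 had no read in any library. A positive difference was found for 18 and a negative one for 12, where 51% of all genes tested were positive. The median was 0.13 against 0.02 for all genes; it was -0.05 for the 53 genes with a read when low values were kept, against -0.02. Of the 30, 0 passed an adjusted p of 0.05 in limma, and 2, Vtn among them, had an unadjusted p under 0.05, both lower in 15-HETrE libraries, where 5.23% of all genes were lower at that level. edgeR likewise had 2 at an unadjusted p under 0.05, against 8.47% of all genes, and 0 after adjustment, and DESeq2 called 0 of them. The groups overlapped for all 30.

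**Figure D5:**
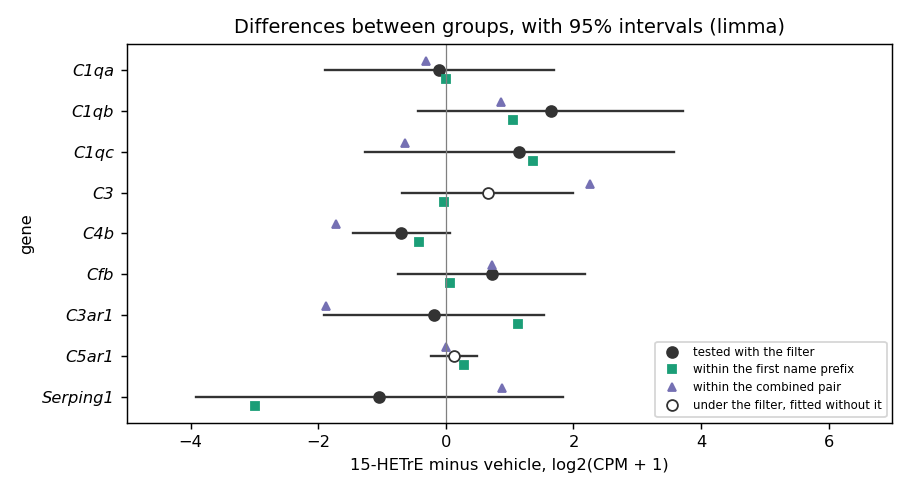
Difference between group means for each member (15-HETrE minus vehicle, log2(CPM + 1)) with its 95% interval from limma; open circles are C3 and C5ar1, fitted with no filter, and squares and triangles are differences in the first name prefix and in the combined pair. Every interval includes 0, and for C1qc, C3, C3ar1 and Serping1 the squares and triangles lie on opposite sides of 0. For C1qa the square lies at 0.001, just above 0, and the triangle at -0.31.

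The genes whose levels ran most like a member's were found by Pearson's r of log2(CPM + 1) over the 6 libraries, among 9878 genes whose mean reached 10 CPM; with so many genes and so few libraries, values near 1 occur readily and say nothing of shared control. For Serping1 they were Dbf4, Col7a1 and Col3a1, each at r = 0.997 or 0.998. Col3a1, a fibrillar collagen chain, had 1998, 1604 and 2.34 CPM (vehicle) and 29.8, 325 and 7.97 CPM (15-HETrE). For C1qa they were Nfatc1 (0.998), Zbtb20 (0.995) and Plxnb1 (0.992), all high in both combined libraries. For C4b they were Smarcd2 (0.996), Entpd7 (0.995) and Rps6ka5 (0.992), lowest in 15-HETrE combined. For C3 they were Dynlrb1 (0.993), Cox4i1 (0.986) and Lztfl1 (0.984), which like C3 were highest in 15-HETrE combined, so that library sets these values.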

How the data were processed

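RNA of sorted cells was measured in 6 libraries, 3 vehicle and 3 15-HETrE. The submitters' processing notes list the tools featureCounts, HISAT2, Trimmomatic and edgeR and the build mm10; the sources used here give no versions, strandedness, annotation or handling of multiply mapped reads. The authors deposited a signal per gene, CPM scaled by a factor per library, since column sums (960982 to 1080350) differ from 1e+06. Dividing by each column's smallest value above 0 gave whole reads for 100% of values (tolerance 1e-04 reads). The number of other columns was 0.

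The 14523 genes whose mean reached 1 CPM were fitted as log2(CPM + 1), pseudocount 1, with limma 3.58.1 (R 4.3.3), group as the only term and a variance trend; p-values are two-sided and were adjusted over all genes by Benjamini-Hochberg. Such differences understate the change of low genes. The test had been written for CPM and was kept for this scaled signal. edgeR 4.0.16 and DESeq2 1.42.0 on recovered reads, other pseudocounts, filters, scalings and weights, and leaving out libraries were alternatives. The fits were tested on simulated data. Reads carry no molecular identifiers, so intervals and floors cover counting error only. GENCODE M21 on GRCm38, which is mm10's assembly, gave positions and exon lengths.

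The members and lists were chosen with earlier results of these data known. Beyond the rule that follows, some list and marker genes were named after their values were seen. Genes named beyond the members are list genes with an unadjusted p under 0.05, up to 2 further tested genes per role by mean level, C4a, the 3 genes most like C1qa, C3, C4b and Serping1 among those of at least 10 CPM (predicted and sex-linked dosage genes left out), and the most abundant markers of each list; some of these are not reported here.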

Additional observations from a re-analysis of the deposited data

How the results depend on the processing

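No paired analysis was possible because the groups' columns share only 1 replicate number. Under every alternative that gave a value, C1qb (0.91 to 2.54), C1qc (0.08 to 2.49) and Cfb (0.34 to 1.14) kept a positive and C4b (-0.9997 to -0.19) and Serping1 (-2.74 to -0.16) a negative difference. C1qa turned positive with quantile normalization (0.042) and array weights (0.0028), and leaving out 1 library gave -0.57 to 0.46; C3ar1 turned positive with quantile normalization (0.086), array weights (0.77), edgeR (0.038) and without both combined libraries (0.66), and leaving out 1 library gave -0.71 to 0.37. Array weights called 1059 genes higher and 1366 lower, 16.7% of all genes. Among these were 1 of 7 members (Serping1) and 7 of the 30 list genes tested. DESeq2 called 35 higher and 130 lower, 1.14% of all genes given an adjusted p, but 0 of 7 members. Leaving out 1 library gave 0 to 2 genes higher, 0 to 89 lower and 0 to 1 of the 30 list genes. The 1 list gene came without vehicle combined, where 0.627% of all genes passed. Chosen after seeing the data, the name group (first prefix, unnumbered, combined) as a batch term called 1 gene higher and 7 lower, and leaving out both combined libraries 2 higher, 155 lower and 1 list gene, which was no member. The cause was not tested. With 53 list genes and no filter, 24 were positive and 29 negative. The low read counts of C1qa, C3, C3ar1 and C5ar1 limit their precision.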
